A study of Rattus norvegicus with 10 samples.

Results

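The type I interferon response genes described here are Ifi27, Usp18, Isg15, Mx1, Mx2, Oas1a, Ifit2, Ifit3 and Irf7, measured in isolated rat pancreatic islets on Affymetrix arrays. They were chosen by name, and every probe set annotated to exactly 1 gene symbol that is one of these 9 was taken, which gave 11 of 31042 probe sets and 9 of 14217 genes with such a probe set. Islets came from male rats aged 40 days in 5 groups of 2 biological replicates. The JBlyp/lyp group is diabetes prone and homozygous for lyp, the lymphopenia mutation. The JB and DR+/+ groups are diabetes inducible and carry no lyp mutation. The F344lyp group, labelled a healthy control, carries lyp on the Fischer background, and the F344 group is the healthy control of that background without it. The first 3 groups belong to the BioBreeding (BB) family of rats, and per the labels' protocols the DR+/+ and JBlyp/lyp rats descend from DRlyp/+ breeder pairs. How the JB and DR lines relate, whether islets of several rats were pooled, and which of a pair of housing institutions each rat came from are not stated. The rats were fasted, and animals with high blood glucose were not used. According to the study's design text, the age was chosen to precede insulitis in the lyp/lyp BB rat, and BB islets were set against non-BB islets.

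Type I interferons bind a receptor made of Ifnar1 and Ifnar2. The kinases Jak1 and Tyk2 then act on Stat2, which joins Irf9 in a complex that binds the interferon-stimulated response element (ISRE) in the promoters of antiviral genes. Beta cells carry this receptor, and an interferon signature in islets is a known feature of human autoimmune diabetes.

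Promoter sequence was taken from RefSeq (rat assembly GRCr8), from 250 bases before to 50 bases after each gene's start site, and was held for 5 members, Ifi27, Mx1, Oas1a, Ifit3 and Irf7. Mx2, Isg15, Ifit2 and Usp18 had no entry. The ISRE core was searched as GAAANNGAAA on both strands. It occurred in 4 of the 5 member promoters, in 28 of 51 promoters of other interferon-stimulated genes (54.9%) and in 1034 of 27457 promoters in all (3.77%). The 70 bases around each match nearest to the start site are shown because this element is the one the receptor's transcription factor complex is known to bind. Capitals mark the matches, each line runs 5′ to 3′ on the gene's strand, and the windows lie at chr6:128355198-128355267 on the plus strand for Ifi27, chr12:41330401-41330470 on the plus strand for Oas1a, chr1:241527252-241527321 on the plus strand for Ifit3 and chr1:205800053-205800122 on the minus strand for Irf7.
Ifi27: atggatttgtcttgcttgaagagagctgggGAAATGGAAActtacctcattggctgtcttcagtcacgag
Oas1a: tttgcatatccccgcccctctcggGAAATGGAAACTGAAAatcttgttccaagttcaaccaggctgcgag
Ifit3: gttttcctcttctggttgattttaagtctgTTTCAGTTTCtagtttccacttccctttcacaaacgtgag
Irf7: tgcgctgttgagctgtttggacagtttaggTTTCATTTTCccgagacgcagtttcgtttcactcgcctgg
The Ifi27 and Oas1a matches read along the gene, and those of Ifit3 and Irf7 are on the opposite strand. Oas1a had a pair of overlapping matches, and Ifi27 had a further match beyond the printed window, from -169 to -160. No match to these letters was in the Mx1 window. The gamma-activated site, searched as the palindrome TTCNNNGAA, occurred in 1 of 5 member promoters (Oas1a), in 8 of 51 promoters of the other interferon-stimulated genes (15.7%) and in 2382 of 27457 in all (8.68%). A match is a description of sequence and does not show that a factor binds there.

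**Figure D1:**
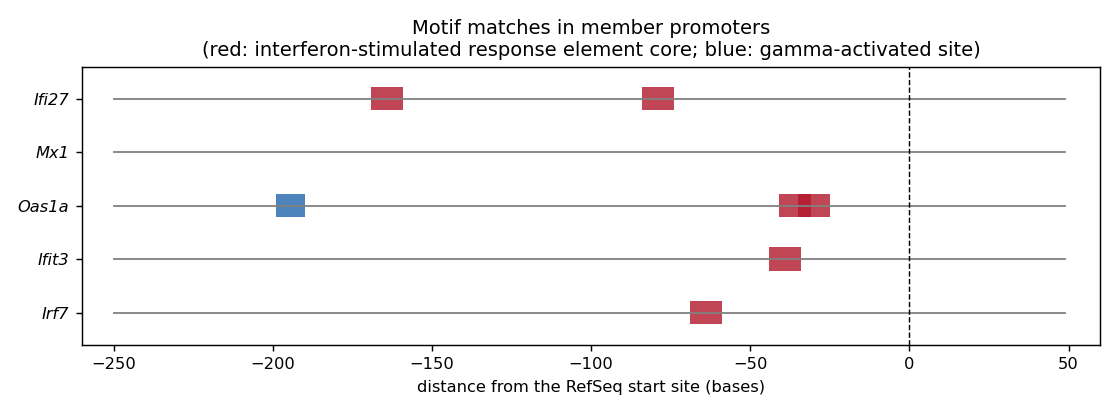
Position of motif matches in the 5 member promoters with a RefSeq entry, from 250 bases before to 50 after the start site (dashed line at 0). The x axis gives the distance in bases, red boxes are matches to the ISRE core and the blue box is the match to the gamma-activated site; 4 of 5 promoters hold the ISRE core, and the matches nearest to the start site begin between -84 and -35.

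The deposited values are log2 intensities. Array medians lay between 5.39 and 5.44, and the Pearson r between a group's replicate arrays was 0.981 to 0.997. Ins1, which encodes insulin in beta cells, read 13.86 to 14.26 on the 6 BB arrays and 14.12 to 14.27 on the 4 F344 and F344lyp arrays, among the brightest probe sets on the array. The DR+/+ arrays stood apart in their islet makeup, since all 9 beta cell markers measured were lower in DR+/+ than in F344 islets (median log2 difference -2.03), while 10 of 13 endothelial and 10 of 16 stellate cell markers were higher. Of all genes 23.8% were lower and 16.3% higher in that comparison. The 20 acinar enzyme and secretory genes were lower in every comparison of a BB group with its F344 counterpart by sign, and their summed linear intensity was 49566 to 79057 in JBlyp/lyp, 60844 to 77305 in JB and 29038 to 29465 in DR+/+, against 200780 to 230544 in F344lyp and 147924 to 170139 in F344 islets. The Gapdh 3′ minus 5′ probe difference, a sign of RNA integrity, was 2.75 to 3.71 on BB arrays and 2.19 to 2.43 on F344 and F344lyp arrays, with no overlap. The same difference for beta-actin did overlap, at 2.57 to 4.17 on BB arrays and 2.72 to 3.06 on F344 and F344lyp arrays. On the DR+/+ arrays it was 2.57 and 2.86. In whole-islet RNA, fewer cells of a type and less RNA per cell cannot be told apart.

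The first question was whether islets of the BB family differ from F344 islets in interferon response genes. Taken as the mean of the 3 BB groups minus the mean of the 2 F344 groups, 7 of the 9 genes were lower in BB islets at an adjusted p under 0.05 (limma, Benjamini-Hochberg over all probe sets), among a background in which 24.6% of all genes were lower and 37.9% were called in either direction. The median log2 difference of the 9 genes was -1.02, against -0.04 for all genes. In 7 of the 9 genes every BB array lay below every F344 and F344lyp array, as was so for 10.6% of all genes. With the DR+/+ arrays left out, 9 of 9 were called lower (25.6% of all genes called). The contrast takes its error from replicates within groups, and with the 5 groups treated as a random block 5 of 9 were called (3.76% of all genes), the calls of Mx2 and Oas1a being lost.

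Ifi27, a small hydrophobic membrane protein used as a marker of interferon exposure, had the largest difference of the 9. It read 9.11 and 8.84 in JBlyp/lyp, 8.99 and 8.74 in JB and 8.58 and 8.65 in DR+/+ islets, against 11.08 and 11.13 in F344lyp and 10.84 and 10.70 in F344 islets (log2 intensity, here and for the genes that follow). All 6 BB arrays lay below all 4 F344 and F344lyp arrays, and the lowest were the DR+/+ arrays. The BB minus F344 difference was -2.12 ± 0.10 (SE), which is 4.35-fold lower (limma adjusted p = 7.76e-07).

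Usp18 is the protease that removes Isg15 from proteins and also blocks the interferon receptor from within the cell, so it is both a target and a brake of the pathway. It read 6.55 and 6.57 in JBlyp/lyp, 6.34 and 6.40 in JB and 6.19 and 6.26 in DR+/+ islets, against 7.56 and 7.68 in F344lyp and 7.14 and 7.26 in F344 islets. The BB arrays were all below the others, with DR+/+ again the lowest. The BB minus F344 difference was -1.02 ± 0.08 (limma adjusted p = 2.55e-05).

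Irf7 is the transcription factor that amplifies interferon production. It read 6.50 and 5.88 in JBlyp/lyp, 6.11 and 5.85 in JB and 6.67 and 6.47 in DR+/+ islets, against 7.54 and 7.38 in F344lyp and 7.31 and 7.11 in F344 islets. The BB arrays were all below the others, with DR+/+ nearest to them on average. The difference was -1.09 ± 0.13 (limma adjusted p = 0.000271).

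In 4 of the antiviral effectors the DR+/+ arrays lay between those of the other BB groups and those of F344 and F344lyp. Mx1, a dynamin-like GTPase that blocks viral replication in the rodent nucleus, read 4.6 and 4.43 in JBlyp/lyp, 4.20 and 4.32 in JB and 5.32 and 5.23 in DR+/+ islets, against 6.33 and 6.06 in F344lyp and 6.06 and 6.13 in F344 islets. JB and JBlyp/lyp were lowest, DR+/+ lay between, and no BB array reached an F344 or F344lyp array. The BB minus F344 difference was -1.46 ± 0.09 (limma adjusted p = 6.37e-06). Oas1a, an oligoadenylate synthetase that answers double-stranded RNA by activating RNase L, read 4.32 and 4.03 in JBlyp/lyp, 4.48 and 3.62 in JB and 4.70 and 4.64 in DR+/+ islets, against 5.39 and 5.46 in F344lyp and 5.36 and 5.28 in F344 islets. Its replicates in JB were the farthest apart of any member's, yet all BB arrays were below the F344 and F344lyp arrays (difference -1.07 ± 0.15, limma adjusted p = 0.00065). Ifit3, a tetratricopeptide repeat protein that works in complexes on viral RNA, read 3.48 and 3.38 in JBlyp/lyp, 3.44 and 3.32 in JB and 3.75 and 3.69 in DR+/+ islets, against 4.20 and 4.12 in F344lyp and 3.98 and 4.13 in F344 islets. Its values were below the array median on every array, the groups did not overlap, and the difference was -0.60 ± 0.08 (limma adjusted p = 0.000615). Mx2, the cytoplasmic Mx GTPase of the rat, encoded near Mx1 with 1 protein-coding gene (Fam3b) between them, read 4.0 and 4.18 in JBlyp/lyp, 4.33 and 3.98 in JB and 4.38 and 4.62 in DR+/+ islets, against 4.80 and 4.84 in F344lyp and 4.75 and 4.91 in F344 islets. All BB arrays were again lower, and the difference was -0.58 ± 0.11 (limma adjusted p = 0.00246). The other Mx2 probe set read 2.70 to 3.45 over the 10 arrays and was called in no comparison, and with the median of both probe sets the Mx2 difference was -0.17 (limma adjusted p = 0.144).

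Ifit2 and Isg15 did not share this pattern. Ifit2, a partner of Ifit3 encoded beside it with no protein-coding gene between them, read 7.31 and 7.18 in JBlyp/lyp, 7.19 and 7.31 in JB and 8.86 and 9.0 in DR+/+ islets, against 7.94 and 8.09 in F344lyp and 8.0 and 8.06 in F344 islets. Isg15, the ubiquitin-like protein that is attached to other proteins during an interferon response, read 6.25 and 5.87 in JBlyp/lyp, 6.13 and 5.86 in JB and 7.40 and 7.56 in DR+/+ islets, against 6.73 and 6.79 in F344lyp and 6.77 and 6.86 in F344 islets. For both genes the JB and JBlyp/lyp arrays were lowest, the F344 and F344lyp arrays intermediate and the DR+/+ arrays highest, with no overlap between these 3 sets. The pooled BB minus F344 difference therefore spans groups on both sides and was -0.22 ± 0.09 for Ifit2 (limma adjusted p = 0.0877) and -0.27 ± 0.11 for Isg15 (limma adjusted p = 0.078). The dimmer Ifit2 probe set read 3.27 and 3.36 in JBlyp/lyp, 3.25 and 3.73 in JB and 4.64 and 4.62 in DR+/+ islets, against 4.78 and 4.53 in F344lyp and 4.0 and 4.35 in F344 islets. On it the DR+/+ arrays lay above the F344 arrays and within the range of the F344lyp arrays, and it had a pooled difference of -0.61 (limma adjusted p = 0.0043).

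**Figure D2:**
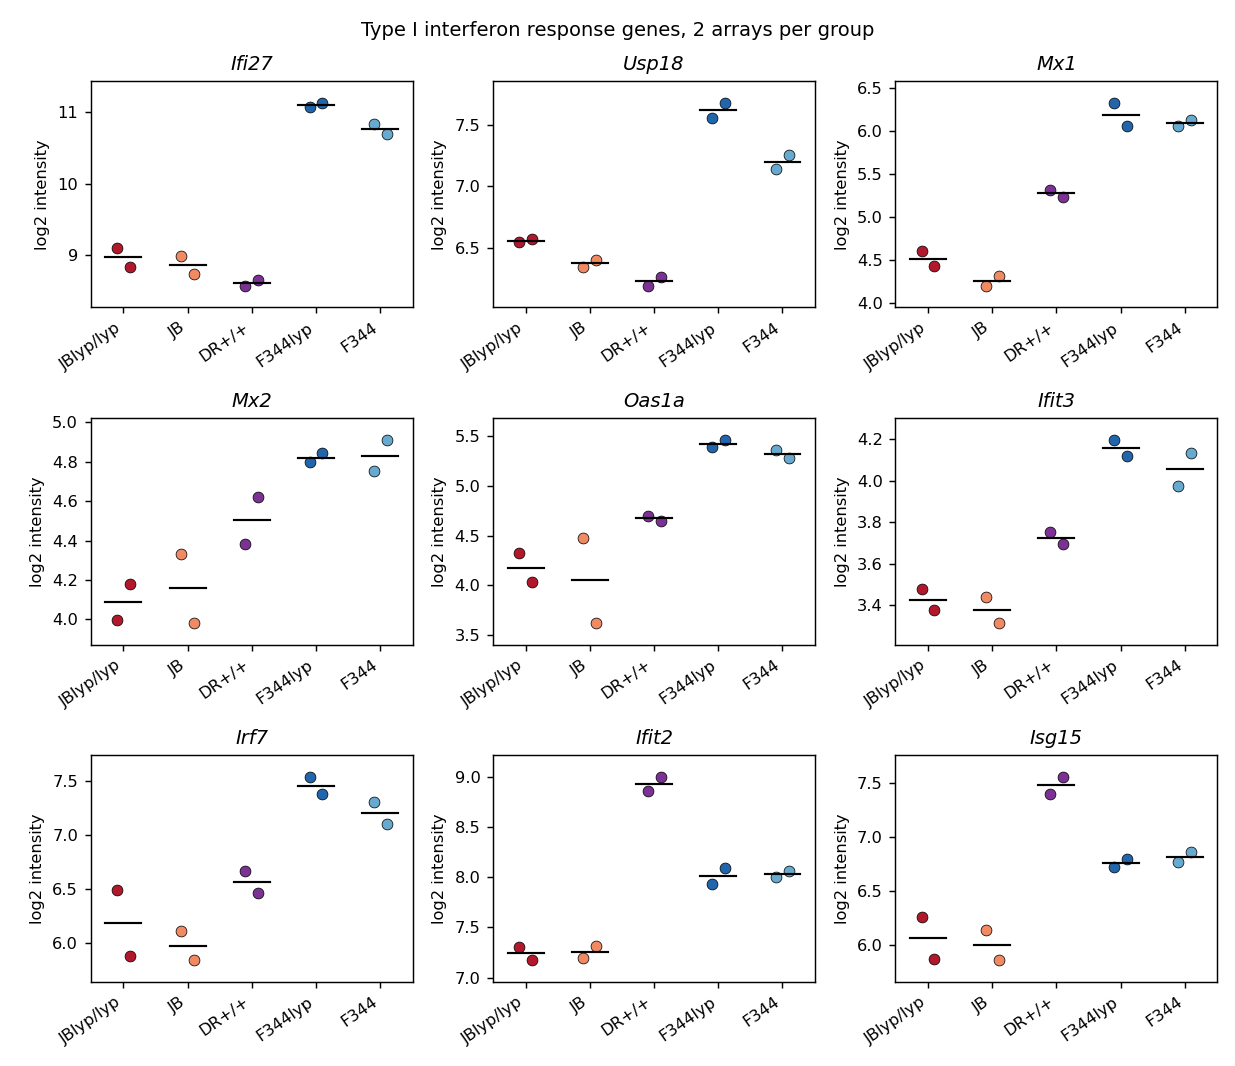
Log2 intensity (y axis, scale differs by panel and does not start at 0) of each of the 9 genes on every array, by its brightest probe set; points are single arrays, 2 per group, and bars are group means. In Ifi27, Usp18, Mx1, Mx2, Oas1a, Ifit3 and Irf7 the 6 BB arrays lie below the 4 F344 and F344lyp arrays, while Ifit2 and Isg15 are highest in DR+/+.

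The background difference was then read in separate arrays, first where neither side carried lyp and then where both did. In JB islets all 9 genes were lower than in F344 islets, where 8.22% of all genes were lower and 13% were called. In JBlyp/lyp islets all 9 were lower than in F344lyp islets, where 11.3% of all genes were lower and 16% were called. These contrasts share no array, although they share one estimate of the spread. The median difference of the 9 genes was -0.83 for JB and -1.06 for JBlyp/lyp, against -0.04 for all genes in each.

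Ifi27 differed by -1.90 ± 0.15 in JB (limma adjusted p = 9.83e-05) and by -2.13 ± 0.15 in JBlyp/lyp (limma adjusted p = 2.78e-05). Mx1 differed by -1.83 ± 0.14 in JB (limma adjusted p = 9.52e-05) and by -1.67 ± 0.14 in JBlyp/lyp (limma adjusted p = 9.85e-05). These are the largest 2 differences of the set in each contrast. Oas1a followed at -1.27 in JB and -1.25 in JBlyp/lyp, Irf7 at -1.23 in JB and -1.27 in JBlyp/lyp, and Usp18 at -0.83 in JB and -1.06 in JBlyp/lyp. Ifit2, Isg15, Ifit3 and Mx2 differed by -0.67 to -0.82 in JB and by -0.70 to -0.77 in JBlyp/lyp, with limma adjusted p of 0.0268 or less. With the median of a gene's probe sets 8 of 9 were called in each contrast, and Mx2 was not (-0.24 in JB, limma adjusted p = 0.29, and -0.32 in JBlyp/lyp, limma adjusted p = 0.143). Some calls, of larger and smaller differences, were lost with a single array left out, and in the fits that follow the share of all genes called fell too. The differences moved less, that of Ifit3 in JB staying between -0.76 and -0.60 with any 1 array left out. Without F344 replicate 1, 3 of 9 genes were called in JB minus F344 (2.83% of all genes), and without F344 replicate 2, 4 of 9 (3.88% of all genes). Without F344lyp replicate 2, 5 of 9 were called in JBlyp/lyp minus F344lyp (5.33% of all genes). The Ifi27, Mx1 and Usp18 calls held in both contrasts with any 1 array left out.

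In DR+/+ islets, set against the same F344 arrays as JB, the 9 genes went in both directions. Ifi27 (-2.16 ± 0.15, limma adjusted p = 8.73e-06), Usp18 (-0.97 ± 0.13, limma adjusted p = 0.000304), Mx1 (-0.82 ± 0.14, limma adjusted p = 0.00178) and Irf7 (-0.64 ± 0.21, limma adjusted p = 0.0388) were lower. Ifit2 (0.90 ± 0.14, limma adjusted p = 0.000714) and Isg15 (0.67 ± 0.17, limma adjusted p = 0.0118) were higher. These 4 lower and 2 higher calls stand among 23.8% of all genes lower, 16.3% higher and 40.1% called. Oas1a (-0.65), Ifit3 (-0.33) and Mx2 (-0.33) did not pass, with limma adjusted p of 0.0633 to 0.159. The Irf7 call was lost without either DR+/+, either F344 or either F344lyp array (limma adjusted p up to 0.215), and the Isg15 call was lost without DR+/+ replicate 2 or either F344 array (limma adjusted p up to 0.0872).

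**Figure D3:**
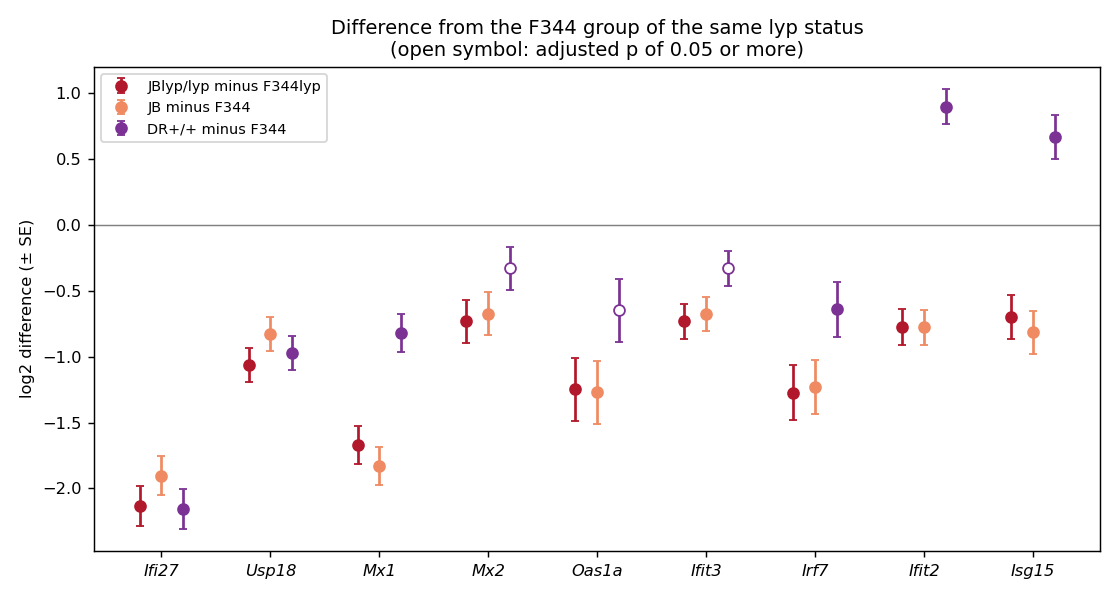
Log2 difference of each gene (y axis, ± SE from limma) between each BB group and the F344 group of the same lyp status; filled symbols have an adjusted p under 0.05 and open symbols do not. All 9 genes are below 0 in JBlyp/lyp and JB, and in DR+/+ the values run from -2.16 for Ifi27 to 0.90 for Ifit2.

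The BB groups without lyp were compared directly. In DR+/+ islets Ifit2 was higher than in JB islets by 1.68 ± 0.14 (3.2-fold, limma adjusted p = 2.32e-05), Isg15 by 1.48 ± 0.17 (2.80-fold, limma adjusted p = 0.000145) and Mx1 by 1.01 ± 0.14 (2.02-fold, limma adjusted p = 0.000597). The dimmer Ifit2 probe set was higher by 1.14 (limma adjusted p = 0.00154). These 3 of 9 genes stand against 15.5% of all genes higher and 34% called. Oas1a (0.62), Irf7 (0.59), Ifit3 (0.35) and Mx2 (0.35) were above 0 without passing, and Ifi27 (-0.25) and Usp18 (-0.15) were below it, with limma adjusted p of 0.0594 to 0.456. Oas1a passed without JB replicate 1, and Irf7 passed without either JBlyp/lyp array. In the same comparison 8 of 9 beta cell markers were lower, 12 of 13 endothelial and 11 of 16 stellate cell markers were higher. Of 12 plasmacytoid dendritic cell markers 7 were measured, and Siglech, Ccr9, Spib, Tlr9 and Cd209 had no probe set. Bst2, Irf8 and Tlr7 are also in the interferon lists. Of the 7 measured markers 3 were higher and 0 lower. The summed linear intensity of the 7 was 4076 to 4492 in DR+/+ and 1645 to 2113 in JB islets. The part of these shifts in the interferon result was not tested.

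The lyp mutation is known to deplete peripheral T cells, and its effect was read within each background. On the BB side JBlyp/lyp was set against JB by the name they share. Per the labels' protocols JBlyp/lyp rats descend from DRlyp/+ breeder pairs, and how JB and DR relate is not stated. In that comparison lyp and any difference between lines cannot be told apart. The summed linear intensity of 18 T cell markers was 517 to 518 in JBlyp/lyp and 674 to 705 in JB islets, and 612 to 623 in F344lyp and 880 to 943 in F344 islets, so that the sum was lower with lyp in both backgrounds. Of the 18 markers 0 were called in JBlyp/lyp against JB islets (0.00703% of all genes). In F344lyp against F344 islets 3 were called, all lower (1.9% of all genes called). In JBlyp/lyp against JB islets, 0 of 9 genes passed, 0 had an unadjusted limma p under 0.05, and the differences ran from -0.07 for Mx2 to 0.26 for Mx1 (95% interval for Mx1 -0.07 to 0.58). Of all genes 0.00703% were called there. In F344lyp against F344 islets 0 of 9 passed and 2 had an unadjusted p under 0.05, among 1.9% of all genes called. Usp18 was 0.42 above F344 (95% interval 0.14 to 0.71, limma adjusted p = 0.146) and Ifi27 was 0.34 above it (limma adjusted p = 0.32). The other genes were between -0.05 and 0.25. The interaction tests whether the JBlyp/lyp minus JB and F344lyp minus F344 differences are unlike each other. It called 0 of 9 genes with 0 at an unadjusted p under 0.05, among 0.478% of all genes. These counts use the probe set that represents each gene. The dimmer Ifit2 probe set passed 0.05 before adjustment and not after it in both, with a difference of 0.48 in F344lyp against F344 islets (limma adjusted p = 0.265) and an interaction of -0.65 (limma adjusted p = 0.613). For the interaction, the 95% interval was -0.71 to 0.25 for Ifi27 and -0.30 to 0.61 for Mx1. A p above the threshold does not show that lyp had no effect on these genes, and for Ifi27 the interval in JB, -0.23 to 0.44, gives the size still possible.

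Across the 10 arrays the 9 genes averaged 5.60 to 5.79 in JBlyp/lyp, 5.49 to 5.69 in JB and 6.21 to 6.24 in DR+/+, against 6.84 in both F344lyp arrays and 6.69 to 6.72 in F344 islets (mean log2 intensity). The 55 pairs of the 11 probe sets correlated between -0.66 and 0.98 over the 10 arrays, with a median Pearson r of 0.68; the arrays fall into the groups described, which these values share. Over the same arrays, the genes whose levels were most like the mean of the 9, each scaled to mean 0 and SD 1, were Pdlim1 (Pearson r = 0.982), Krt20 (0.979), Ddx54 (0.975), Capg (0.973) and Cyba (0.973), of 10986 genes ranked. Pdlim1 encodes a cytoskeletal adaptor, Krt20 a keratin, Capg an actin-capping protein and Cyba a subunit of the phagocyte oxidase. Cyba read 5.78 and 5.78 in JBlyp/lyp, 5.95 and 5.60 in JB and 6.54 and 6.40 in DR+/+ islets, against 7.44 and 7.66 in F344lyp and 7.19 and 6.95 in F344 islets.

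The rest of the pathway was read from lists of genes taken by role. Of 63 other interferon-stimulated genes, 46 had a probe set. In BB against F344 islets 13 of the 46 were lower and 4 higher, with a median difference of -0.18, among 24.6% of all genes lower, 13.3% higher and 37.9% called, so that this share was near the background. In JB against F344 islets 12 were lower and 0 higher (median -0.26), among 8.22% of all genes lower. In JBlyp/lyp against F344lyp islets 10 were lower and 1 higher (median -0.28), among 11.3% of all genes lower. In DR+/+ against F344 islets 8 were lower and 13 higher (median 0.07), among 23.8% of all genes lower and 16.3% higher. In DR+/+ against JB islets 20 were higher and 2 lower (median 0.41), among 15.5% of all genes higher and 18.4% lower. In the lyp comparisons 0 of 46 passed. Leaving out a single array lowered the JB count to as few as 3 (without F344 replicate 2) and the JBlyp/lyp count to 7 (without either F344lyp array), and the BB count to 11 (without either F344 array).

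Ifi44l, an interferon-induced cytoplasmic protein, had the largest pooled difference of that list. It read 5.65 and 5.74 in JBlyp/lyp, 5.42 and 5.81 in JB and 6.45 and 6.52 in DR+/+ islets, against 7.51 and 7.47 in F344lyp and 7.15 and 7.46 in F344 islets. The groups did not overlap, and the BB minus F344 difference was -1.47 ± 0.11 (limma adjusted p = 1.48e-05). Ifi27l2b, a relative of Ifi27, differed by -1.23, Lgals9, the lectin galectin 9, by -0.95 and Pml, the scaffold of nuclear bodies, by -0.75, all of them called. The 8 genes of the list that were lower in both JB and JBlyp/lyp against their own F344 counterparts were Oasl, Ifi27l2b, Ifi44l, Ifitm1, Ifitm3, Lgals9, Rtp4 and Slfn4.

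In DR+/+ against F344 islets 3 of these 8 were lower (Ifi27l2b, Ifi44l and Lgals9), 2 were higher (Rtp4 and Slfn4) and 3 did not pass. Rtp4, a receptor-transporting protein induced by interferon, read 8.14 and 7.92 in DR+/+, 5.67 and 5.98 in JBlyp/lyp and 5.91 and 5.95 in JB islets, against 7.04 and 7.23 in F344lyp and 6.67 and 6.72 in F344 islets. It repeated the order of Ifit2 and Isg15, highest in DR+/+ and lowest in JB and JBlyp/lyp, and was 2.10 higher in DR+/+ than in JB (limma adjusted p = 1.53e-05). Slfn4, of the Schlafen family, read 9.11 and 9.0 in DR+/+ against 6.78 and 6.79 in JB islets, a difference of 2.27 (limma adjusted p = 1.62e-05). Trim34, a ubiquitin ligase of the tripartite motif family, and Bst2, the membrane tether that holds budding virions, had the largest DR+/+ minus F344 differences in the list, at 1.94 (limma adjusted p = 0.000113) and 1.85 (limma adjusted p = 1.19e-05).

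The receptor and signalling genes did not move as a block. Of 15, 14 had a probe set, and 2 were lower and 2 higher in BB against F344 islets, among 37.9% of all genes called. The receptor chains differed by -0.05 (Ifnar1) and 0.11 (Ifnar2), and the kinases by 0.25 (Jak1) and -0.05 (Tyk2), with limma adjusted p of 0.0691 to 0.746. Stat2, a transcription factor of the pathway, read 6.95 and 6.95 in JBlyp/lyp, 7.18 and 6.94 in JB and 7.77 and 7.71 in DR+/+ islets, against 7.55 and 7.59 in F344lyp and 7.53 and 7.57 in F344 islets. It was lower in JB (-0.48, limma adjusted p = 0.0439) and JBlyp/lyp (-0.62, limma adjusted p = 0.0141), and higher in DR+/+ than in JB (0.68, limma adjusted p = 0.00386). Irf9, the DNA-binding partner of Stat2, differed by -0.14 (limma adjusted p = 0.575). Probe sets of a gene disagreed here, since a dimmer probe set was lower in BB for Irf9 (-0.61), Jak1 (-0.88) and Ifnar2 (-0.36), and the dimmer Stat2 probe set was lower in JB (-0.48) but did not pass in JBlyp/lyp (-0.19, limma adjusted p = 0.382) or in DR+/+ against JB (0.25, limma adjusted p = 0.191).

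Of 12 interferon ligand genes 3 had a probe set, and Ifnb1, the beta interferon, was 0.33 higher in BB than in F344 islets (limma adjusted p = 0.0365) with overlapping arrays, 3.59 to 4.27 in BB against 3.32 to 3.69 in F344 and F344lyp. It was the 1 ligand called, among 13.3% of all genes higher, and read below the array median on every array. In each of JB, JBlyp/lyp and DR+/+ against its F344 counterpart 0 of the 3 were called. Of 14 nucleic acid sensing genes measured, 4 were lower and 1 higher in BB islets, a share near the 24.6% of all genes lower and 37.9% called. The 4 were Unc93b1 (-1.19), the chaperone of endosomal Toll-like receptors, Ticam1 (-0.97), the adaptor of Tlr3, Tlr7 (-0.83), a sensor of single-stranded RNA, and Irf8 (-0.64), a transcription factor of myeloid cells. Tlr7 also read below the array median on every array. Of 16 negative regulators 3 were lower and 3 higher, again a share near the 37.9% of all genes called, the 3 higher ones being Tnfaip3 (0.97), Usp25 (0.77) and Ptpn2 (0.57), and Pias4 (-0.81) was among the lower.

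Genes known for their response to interferon gamma gave a mixed picture. Of 18 measured, 9 were lower and 2 higher in BB against F344 islets, where 24.6% of all genes were lower and 13.3% higher. The lower ones included the immunoproteasome subunits Psmb10 (-1.59) and Psmb9 (-1.17). Irgm, an interferon-inducible GTPase, was higher (1.47), as was Cxcl10 (1.13), a chemokine for activated T cells. Cxcl10 read 7.79 and 7.59 in JBlyp/lyp, 7.86 and 8.40 in JB and 5.01 and 4.96 in DR+/+ islets, against 5.90 and 6.36 in F344lyp and 5.31 and 5.64 in F344 islets. Its order was the reverse of Ifit2 and Isg15, highest in JB and JBlyp/lyp and lowest in DR+/+ (DR+/+ minus JB -3.15, limma adjusted p = 1.26e-05). Cxcl11, its relative, was also lower in DR+/+ than in JB (-2.39, limma adjusted p = 7.68e-05).

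**Figure D4:**
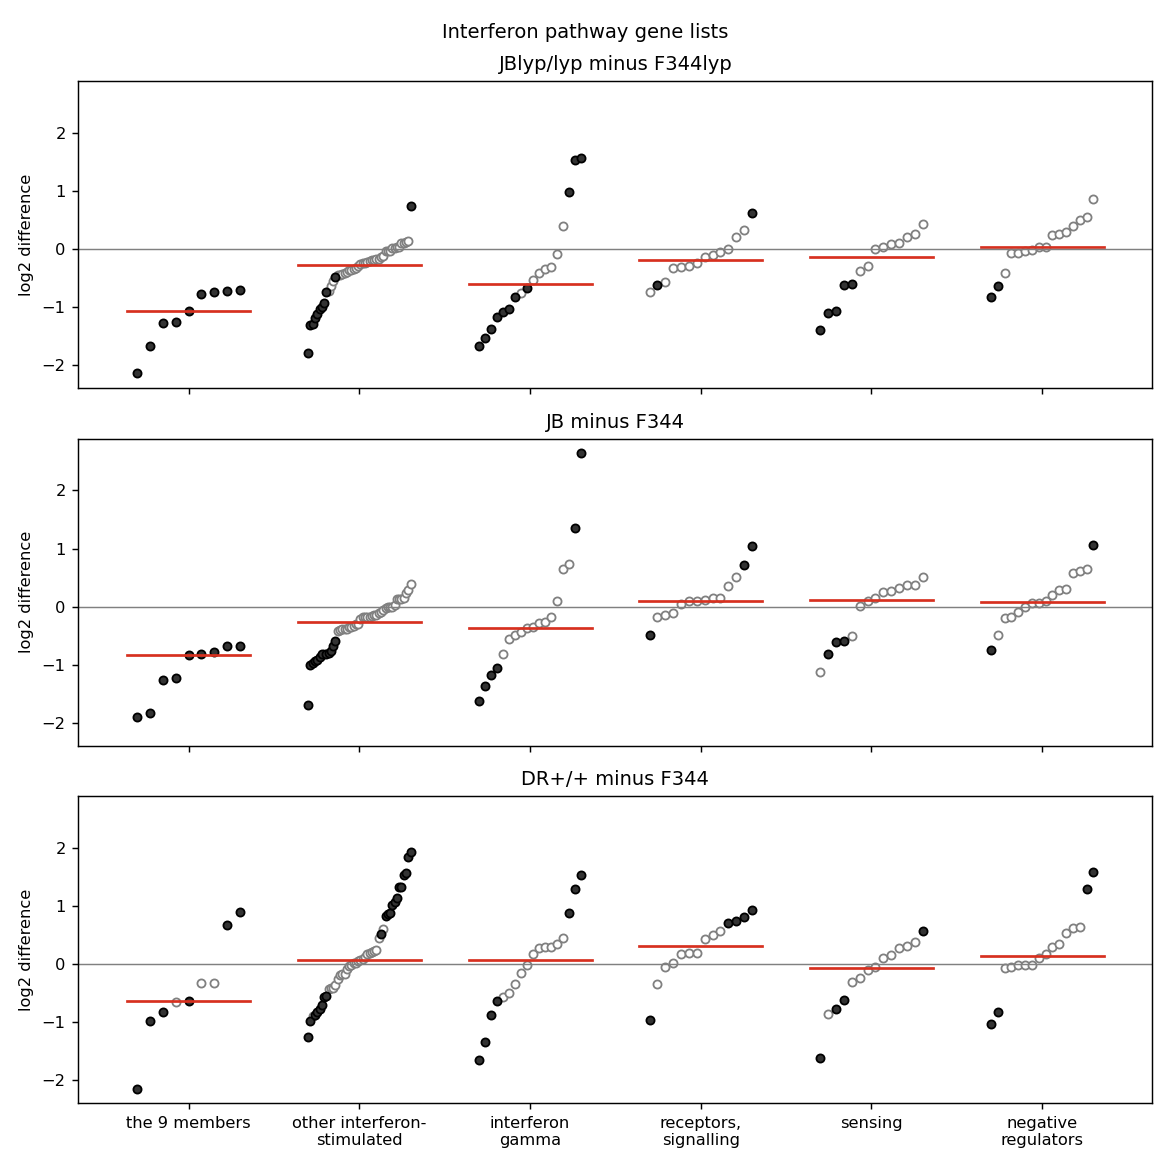
Log2 difference (y axis) of every measured gene of 6 lists in JBlyp/lyp minus F344lyp, JB minus F344 and DR+/+ minus F344; each point is a gene, filled where the limma adjusted p is under 0.05, and the red line is the list's median. The 9 members are all below 0 in the upper 2 panels, and the median of the 46 other interferon-stimulated genes is -0.28, -0.26 and 0.07 from top to bottom.

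Macrophage and dendritic cell markers were lower in BB islets, as 7 of the members were. A smaller share of the other immune lists was called lower in the pooled contrast. Of 31 macrophage and dendritic cell markers measured, 21 were lower and 1 higher in BB against F344 islets (median -0.69), 13 were lower in JB, 18 in JBlyp/lyp and 16 in DR+/+ (2 higher there). Of all genes 24.6% were lower in BB against F344 islets, 8.22% in JB, 11.3% in JBlyp/lyp and 23.8% in DR+/+. Their summed linear intensity was 2779 to 3773 in JBlyp/lyp, 2488 to 3378 in JB and 2584 to 2725 in DR+/+ islets, against 6002 to 6981 in F344lyp and 5160 to 5835 in F344 islets, with no overlap. C1qa, a complement subunit made by macrophages, read 6.98 and 6.78 in JBlyp/lyp, 6.43 and 6.14 in JB and 4.93 and 5.38 in DR+/+ islets, against 8.28 and 8.38 in F344lyp and 8.02 and 7.95 in F344 islets. It was picked after its values were seen. Aif1, another marker of the list, overlapped, at 4.55 to 5.31 on BB arrays and 4.47 to 5.28 on F344 and F344lyp arrays. Of the 7 plasmacytoid dendritic cell markers 2 were lower and 2 higher in BB against F344 islets. Their summed linear intensity was 1384 to 1503 in JBlyp/lyp, 1645 to 2113 in JB and 4076 to 4492 in DR+/+, against 1035 to 1092 in F344lyp and 1200 to 1219 in F344 islets. Such a sum is weighted to the brightest genes. By mean log2 intensity JBlyp/lyp (5.88 to 5.95) lay below F344lyp (6.18 to 6.21), and JB (6.02 to 6.05) below F344 (6.11 to 6.20). DR+/+ was highest by both measures (6.49 to 6.58). In JBlyp/lyp against F344lyp islets 3 of the 7 were lower and 1 higher, and in JB against F344 islets 2 were lower and 1 higher. Of 18 T cell markers 3 were lower and 1 higher in BB against F344 islets, and of 8 B cell markers 1 was lower. The counts for BB against F344 islets stand among 24.6% of all genes lower and 13.3% higher. Of all genes 4.79% were higher in JB and 4.7% in JBlyp/lyp, and the lower shares are given above. Log2 array intensities have no true 0, so none of the markers can be called absent. The summed level of the macrophage and dendritic cell markers in DR+/+ islets was within the range of JB islets. In DR+/+ against JB islets 6 of these markers were higher and 4 lower. Of the 9 members 3 were higher there and 0 lower, among 15.5% of all genes higher and 18.4% lower. The Gapdh 3′ minus 5′ difference and the acinar genes given above separated BB from F344 islets too, and the part of the macrophage markers, the acinar genes and the Gapdh difference in the interferon result was not tested beyond the fit with the Gapdh difference as a covariate. In that fit, which has 1 error degree of freedom fewer and a covariate that itself separates the backgrounds, 0 of 9 members were called in BB minus F344, where 0.0211% of all genes were called, and all 9 differences stayed below 0 with a median of -0.97.

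**Figure D5:**
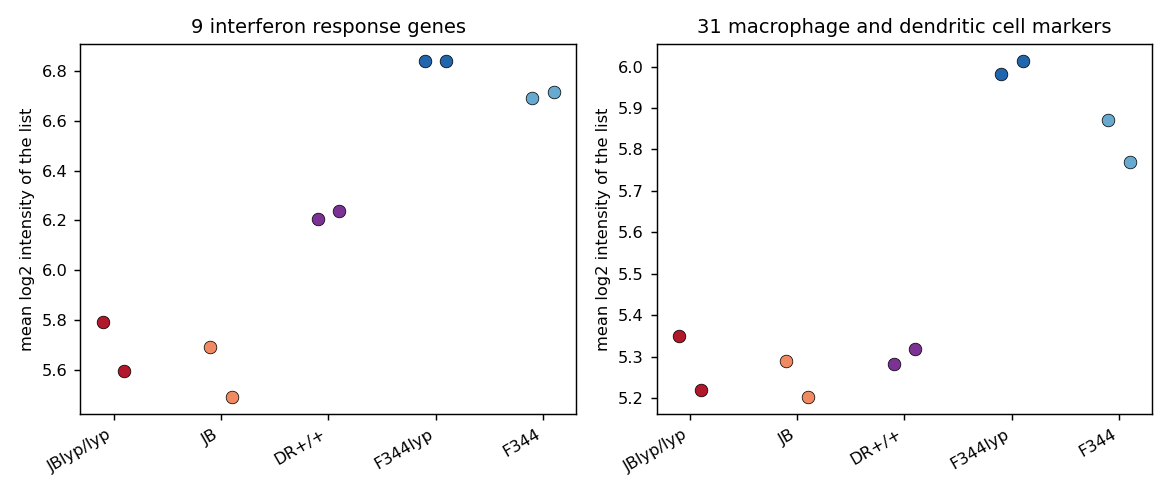
Mean log2 intensity (y axes, not starting at 0) of the 9 interferon response genes (left) and of 31 macrophage and dendritic cell markers (right) on each array, 2 points per group. Both are lower on the 6 BB arrays than on the 4 F344 and F344lyp arrays; DR+/+ lies above JB and JBlyp/lyp for the members (6.21 to 6.24) and among them for the markers (5.28 to 5.32).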

How the data were processed

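RNA of 10 islet preparations was hybridised to Affymetrix rat arrays, and the authors deposited a log2 intensity for each probe set on each array. The submitters' processing notes name GCOS and RMA; no version or genome build is stated there. Platform annotation gave 1 gene symbol to 20826 of 31042 probe sets, several to 436 and none to 9780, after 57 of 31099 were removed as Affymetrix controls. Where a gene has several probe sets, the one brightest on average stands for it.

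The deposited values were used without further normalization. limma 3.58.1 (R 4.3.3) fitted 1 mean per group (5 residual and 4.72 prior degrees of freedom), with moderated two-sided tests of 8 contrasts and Benjamini-Hochberg adjustment over 31042 probe sets; calls are at an adjusted p under 0.05. The model was tested on simulated data. With 2 arrays per group, p-values reflect the spread of these samples alone, and the number of arrays limits the precision. Titles call the replicates biological.

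The members, lists and tests were chosen with earlier results of these data known. Of 326 listed genes, 257 were measured. Text names all 9 members, the receptor chain, and from each list at most the 4 largest called differences in BB minus F344 and the 2 largest in each other comparison, beside genes a count turns on. C1qa and Aif1 were chosen after their values were seen. All 9 members' Entrez identifiers were found in the RefSeq gene table, used for names and neighbours. Alternatives were a replicate block, renewed quantile normalization, array weights, the brighter probe sets alone, probe set medians, a Gapdh covariate, other error terms and each array left out. Figures were drawn with Python 3.11.15 and matplotlib 3.10.9.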

Additional observations from a re-analysis of the deposited data

Results flagged for a closer look

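The difference from F344 islets differed between DR+/+ and JB islets, tested as DR+/+ minus JB with limma, for Ifit2 (1.68 log2 units, and 1.14 for its dimmer probe set), Isg15 (1.48) and Mx1 (1.01). Both arrays of DR+/+ lay above both of JB for each of these probe sets, as was so for 30.4% of all genes. The probe sets were picked by their call in this comparison, so this separation adds no support. No array stood out from the other BB arrays or from the other F344 and F344lyp arrays by Dixon's criterion in any of the 22 sets of member values examined. Chance alone meets this criterion in about 1 set in 20 where all arrays of a set share 1 level. Each set here joined 2 or 3 groups, and differences between groups widen the range, so an outlying array could go unseen.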

How the results depend on the processing

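No member's called difference changed sign under any alternative listed under the processing. In the count of members called, 5 of 9 members were tested when the dimmer probe sets were left out, and 3 were then called in BB minus F344, 5 in JB minus F344 and 5 in JBlyp/lyp minus F344lyp, with 46.9%, 16.7% and 18.5% of 9694 genes called. With the Gapdh 3′ minus 5′ difference as a covariate the counts were 0 in BB minus F344, 0 in JB minus F344, 1 in JBlyp/lyp minus F344lyp and 0 in DR+/+ minus F344, with 0.0211%, 0.00703%, 0.492% and 0.338% of all genes called; the cause was not tested. With the replicate block 5 members were called in DR+/+ minus JB, against 3 without it, Oas1a and Irf7 being added, and 37.2% of all genes against 34%. Replicate numbers were not taken to pair the samples, because the deviations of same-numbered arrays correlated above 0.1 in 5 of 10 pairs of groups and not in the others (range -0.10 to 0.65, the highest between JBlyp/lyp and JB). Leaving out each array in turn gave 7 to 8 members called in BB minus F344, 3 to 9 in JB minus F344, 5 to 9 in JBlyp/lyp minus F344lyp, 4 to 7 in DR+/+ minus F344, 3 to 4 in DR+/+ minus JB, and 0 to 0 in JBlyp/lyp minus JB, F344lyp minus F344 and their interaction. Over single genes, comparisons and alternatives 67 calls were lost and 19 gained, most under the Gapdh covariate or with 1 array left out. The count of other interferon-stimulated genes in BB minus F344 was 17 (37.9% of all genes called), against 6 with only 2 group means (13.2%), 3 with the groups as a random block (3.76%) and 0 with the Gapdh covariate (0.0211%), so that the list's count fell along with that of all genes. With 2 arrays per group even a difference of several standard errors could go uncalled. An example was Usp18 in F344lyp minus F344 (0.42 ± 0.13, limma adjusted p = 0.146). Mx2 and Ifit3 lay below the array median on every array.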
